A study of Drosophila melanogaster with 14 samples.

Results

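The transposable element (TE) insertions of the piwi-sKD pool were looked for, line by line, in 12 single flies taken after the same kind of knockdown. The pool list held 5096 insertions absent from the reference genome, of 20426 in all 14 lists of the series. An insertion counted as held by a fly when the fly's list had a line of the same TE family with a gap of at most 100 bp between the listed intervals. It counted as found when at least 1 of the 12 flies held it. All libraries are genomic DNA of 1 *Drosophila melanogaster* line, mutant for *white* (w) and carrying the transgenes tj-GAL4, tubP-GAL80[ts] and sh-piwi. In it the *traffic jam* promoter drives GAL4 in ovarian follicle cells, GAL4 switches on a hairpin RNA against *piwi*, and a heat-sensitive repressor holds GAL4 back in the cool. For piwi-sKD the temperature was raised to 25°C over the last 5 days, whereas the no-KD pool of 3 to 17 h embryos stayed at 20°C. The transgenes were thus present in every library, no-KD included. Per the methods of the study, the piwi-sKD pool was made of embryos, and the 12 flies were adults, of the F2 generation after the shift, so it was applied to their forebears and not to the animals sequenced. The label of the pool names adult flies instead, and its group was taken from its title. The pools were read at 100 nt and the flies, prepared and sequenced elsewhere, at 125 nt. The labels give no sex for the flies.

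Piwi is the nuclear Argonaute protein that, guided by piRNAs, silences TEs at the chromatin. In follicle cells it restrains endogenous retroviruses (ERVs), some of which can pass from these somatic cells into the oocyte and insert in the genome of the progeny. A list made from a pool can hold both old insertions that nearly every animal carries and rare insertions present in few animals or in 1. The study warns that predictions particular to 1 library can also be false, from chimeric TE-genome fragments formed in library preparation. Lines are called insertions here as they were listed, and false lines were not told apart from real ones. In such a list the number of reads that support an insertion rises with the share of chromosomes that carry it, while the number of single animals that hold it is a count of carriers above the detection limit of each animal's library. For a real insertion, read support in the pool and carriers among the flies are therefore separate readouts of the same property.

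The pool insertions were supported by 47733 reads in total, with a median of 4 reads and a highest value of 1248. The lowest support, 2 reads, was seen in 1842 of them (36.1%). The insertions belonged to 70 families with at least 20 members and 53 with fewer, and 81.4% were listed as a point without length. The single flies had 537 to 1307 insertions each (median 908.5) with 1774 to 5901 supporting reads. Total sequencing depth is not given in the lists, so supporting reads stand in for it. The pool is 1 library with no replicate. All tests below hold its list fixed and measure the spread between the 12 flies, which are relatives of 1 line. All intervals cover counting error over listed lines. They treat lines as independent, although lines share loci, flies and the pool library. Supporting reads are not independent molecules either.

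Most of the pool list was not seen again. At least 1 fly held 1857 pool insertions, which is 36.4% (Wilson 95% interval 35.1 to 37.8), and 0 flies held the other 3239 (63.6%). At least 6 flies held 769 insertions (15.1%), at least 10 flies held 295 (5.79%) and all 12 flies held 81 (1.59%). There were 384 insertions in 1 fly, 218 in 2 flies and between 104 and 182 in each class from 3 to 8 flies. The counts stood at 118 and 132 in 9 and 10 flies, then 82 in 11 and 81 in 12. Insertions held by more flies were better supported in the pool. Median pool support was 3 reads for insertions in 0 flies, 4 in 1 fly, 13 in 6 flies, 17.5 in 10 flies and 24 in all 12. The share that also lay in the no-KD pool rose alongside, from 41.4% of insertions in 0 flies to 98.8% of those in all 12.

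**Figure D1:**
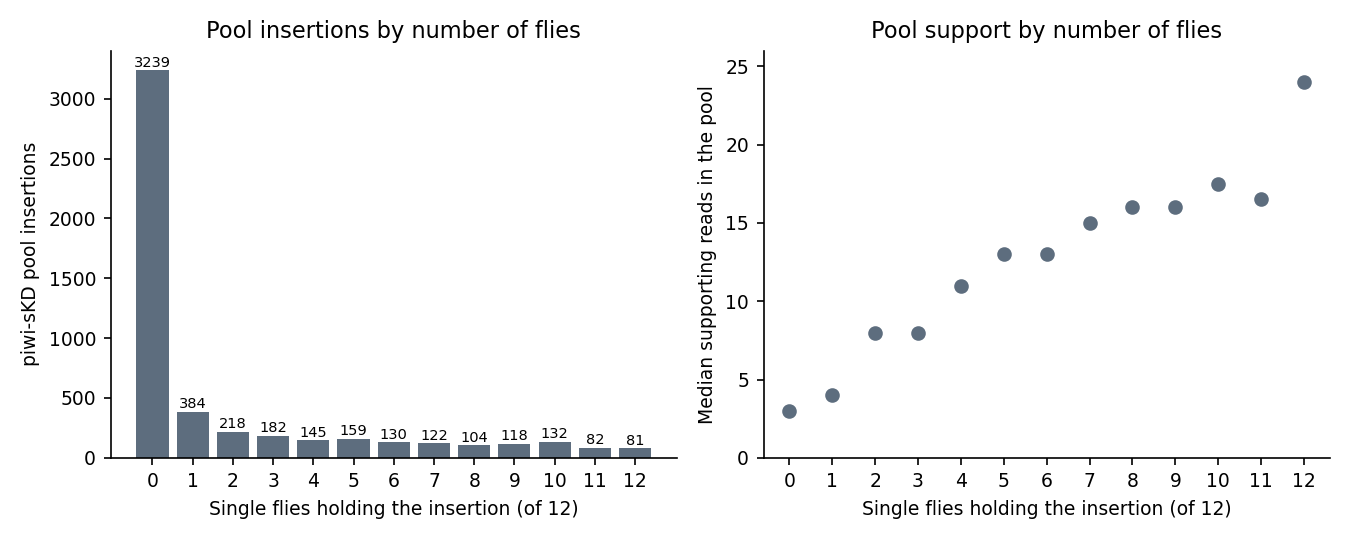
Left, bars count the piwi-sKD pool insertions held by 0 to 12 single flies; right, points give the median supporting reads in the pool for the same classes. The 3239 insertions in 0 flies outnumber all others, and the median support goes from 3 reads at 0 flies to 24 reads at 12 flies.

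The share found depends on how near a fly line must lie. Each pool line was paired with the nearest line of its family in each fly. Over the 12 flies, 1833 pairs touched or overlapped, 3373 were 1 to 20 bp apart and 4257 were 21 to 100 bp apart. Another 2528 pairs were over 100 and up to 200 bp apart and 1875 over 200 and up to 300 bp. Beyond 300 bp the pairs thinned out to 478 and 274 in the next 100 bp steps. The share found was therefore 12% with a window of 0 bp, 24.9% at 20 bp and 49.8% at 500 bp. Because several lines of a family often stood close together, the 5096 pool lines formed 4609 loci when merged within 100 bp, of which 32.7% were found. Pool lines merged and matched at 500 bp formed 3657 loci, of which 40.9% were found. Shares below are for single lines at 100 bp, and the order of the groups is given with the window where that order changed.

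A single fly held between 489 and 1037 of the pool insertions, with a mean of 15.5% ± 3.40 of the list (SD, n = 12). The lowest values were 9.60% in fly 12 and 10.1% in fly 10, which also had the fewest supporting reads, and the highest was 20.3% in fly 5, which had the most. Across the 12 flies the number held went with the fly's supporting reads (Pearson r = 0.963, Spearman rho = 0.993, permutation p = 1.00e-05 for each, two-sided and the smallest possible, adjusted 2.00e-05 over 2 relations). Without flies 5 and 12, the farthest from the median, r was 0.985 (permutation p = 1.00e-05, n = 10). The reads of the held insertions are part of the fly's total, so the 2 measures are not independent. In the other direction, 71.4% ± 3.87 (SD, n = 12) of a fly's own insertions had a pool partner, from 63.5% to 75.9%. That share had no such relation to the fly's reads (r = -0.111, permutation p = 0.731; rho = -0.252, permutation p = 0.432).

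**Figure D2:**
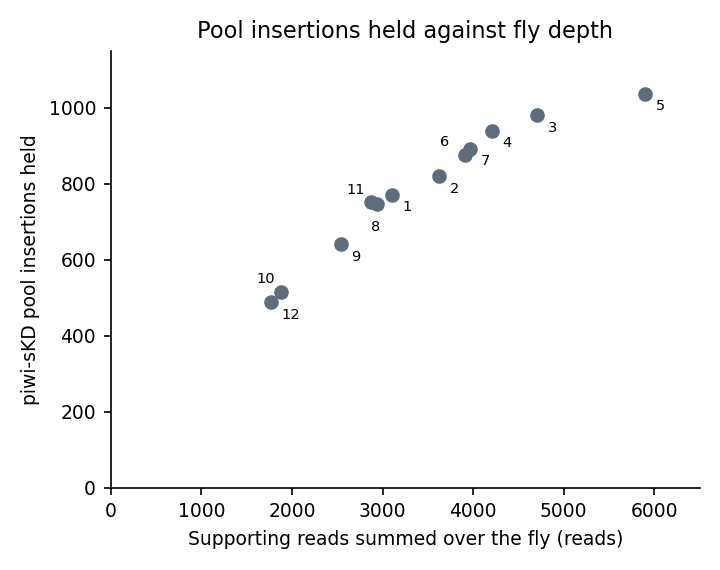
Each point is 1 single fly, numbered by replicate, with its summed supporting reads on the x axis and the number of piwi-sKD pool insertions it held on the y axis. The points climb from 489 insertions in fly 12 to 1037 in fly 5 (Pearson r = 0.963).

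The number of flies that held an insertion went with its pool support. Of the 1842 insertions with 2 pool reads, 12.9% were found (Wilson 95% interval 11.5 to 14.5). The share was 24.0% (21.6 to 26.7) of 1074 insertions with 3 to 4 reads and 41.1% (38.0 to 44.4) of 909 with 5 to 9 reads. It was 69.3% (65.8 to 72.7) of 672 insertions with 10 to 19 reads and 87.0% (84.0 to 89.4) of 599 with 20 or more. None of these intervals, which count lines as independent, overlapped its neighbour. A single fly held 3.22% ± 0.869 of the insertions with 2 reads and 48.6% ± 9.55 of those with 20 or more (SD, n = 12). In each fly the share held was higher for insertions of at least 10 pool reads than for those of 2 reads. The difference was 36.8 ± 7.46 percentage points (SD, n = 12), from 22.9 to 48.0, and higher in 12 of 12 flies (exact sign-flip permutation test, two-sided, adjusted p = 7.67e-04). This is the smallest adjusted value that 12 flies gave over the 11 contrasts tested. Across all insertions, pool reads and fly count had a Spearman rho of 0.558. The rho was 0.478 to 0.647 on the large arms and X, 0.500 on chromosome 4 and 0.131 on Y, as a description across lines that share libraries and loci.

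Support and presence in the no-KD pool went together, so each was read within the other. A no-KD line of the family lay within 100 bp for 2906 pool insertions, of which 53.9% were found, and was absent for 2190, of which 13.3% were found. At 2 pool reads, 26.4% of the shared and 8.79% of the unshared insertions were found. At 10 to 19 reads the shares were 71.4% and 46.4%, and at 20 or more reads they were 87.4% and 72.2%, the latter of 18 insertions. To compare groups at equal support, the share expected in a fly was taken as that fly's own rate in the same support class, over 5 classes. Measured against this expectation, shared insertions exceeded unshared ones by 5.80 ± 1.56 points (SD, n = 12), in 12 of 12 flies (exact sign-flip test, adjusted p = 7.67e-04). The difference was 2.81 points with pool lines merged within 100 bp and 11.1 with a 500 bp window.

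**Figure D3:**
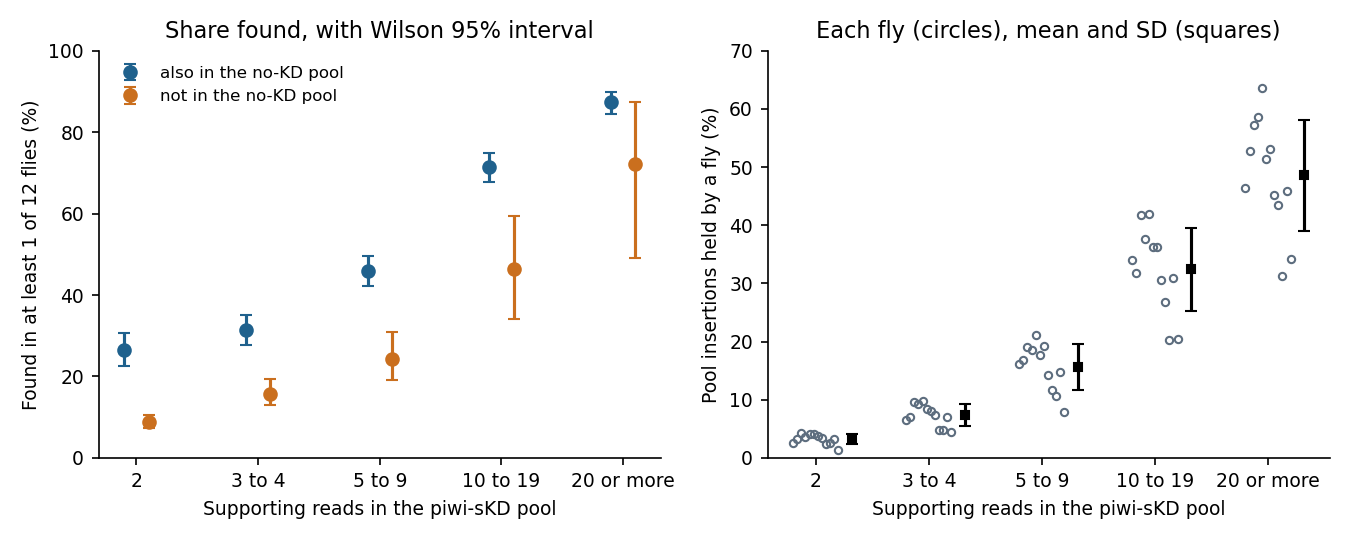
Left, the share of piwi-sKD pool insertions found in at least 1 of 12 flies (y axis, %) by supporting reads in the pool (x axis), split by presence in the no-KD pool, with Wilson 95% intervals; right, the share held by each fly (circles) with mean and SD over the 12 flies (squares). The share found was 26.4% against 8.79% at 2 reads and 87.4% against 72.2% at 20 or more.

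Of the 4356 insertions of the no-KD list 1741 were found in the same flies, and 77 were held by all 12. At equal support a fly held less of the piwi-sKD list than of the no-KD list by 1.06 ± 0.423 points (SD, n = 12), in 12 of 12 flies (exact sign-flip test, adjusted p = 7.67e-04). The order was not the same in every support class. In the class of 3 to 4 a fly held 7.29% of the piwi-sKD and 9.44% of the no-KD list. The shares were 32.4% and 33.0% in the class of 10 to 19, and 48.6% and 46.8% in that of 20 or more. This compares 2 libraries, not 2 conditions, and the lists overlap, since 581 of the 599 piwi-sKD insertions with 20 or more reads had a no-KD partner.

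Insertions on the Y chromosome stood apart. The pool list had 351 on Y (6.89% of the list), close to the share in the no-KD list (6.93%), whereas Y insertions made up 1.70% ± 0.277 (SD, n = 12) of a fly's list, from 1.38% to 2.24%. Of the 351, 20 were found (5.70%), against 35.1% expected from their support. A single fly held between 0.855% and 3.13% of them (median 1.99%), or 3 to 11 insertions. Even at 20 or more pool reads 5 of 28 Y insertions were found (17.9%), compared with 431 of 473 (91.1%) on the 4 large autosome arms. Relative to those arms the difference at equal support was -13.3 ± 3.33 points (SD, n = 12), negative in 12 of 12 flies (exact sign-flip test, adjusted p = 7.67e-04). Sex and the different library preparation were not tested as sources of this gap. Lines listed on the mitochondrial genome were also seldom found, with 2 of 73 (2.74%). Their difference was -10.2 ± 2.43 points (exact sign-flip test, adjusted p = 7.67e-04). Whether these lines were insertions or chimeric fragments was not tested.

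The small, largely heterochromatic chromosome 4 lay on the other side. Of its 154 pool insertions 38.3% were found, close to the 39.3% of the autosome arms, but their support was low and 28.5% was expected. The difference from the arms at equal support was 4.79 ± 1.41 points (SD, n = 12), positive in 12 of 12 flies (exact sign-flip test, adjusted p = 7.67e-04). It was 0.0127 points when support was left aside (adjusted p = 0.978) and 0.434 with a window of 0 bp (adjusted p = 0.227). X differed from the arms by -0.385 ± 1.27 points (adjusted p = 0.353), and its sign turned with a 500 bp window (1.70, adjusted p = 0.00752). Among the large arms, 49.5% of 660 insertions were found on 2L, 39.9% of 1037 on 3L, 38.8% of 1004 on 3R and 32.1% of 939 on 2R, and differences among these arms were not tested. Insertions inside annotated gene spans were found more often (40.4% of 2612) than those outside (33.2% of 2411). The difference at equal support was 3.04 ± 0.942 points in 12 of 12 flies (exact sign-flip test, adjusted p = 7.67e-04), and 2.01 with Y and the mitochondrial genome left out.

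**Figure D4:**
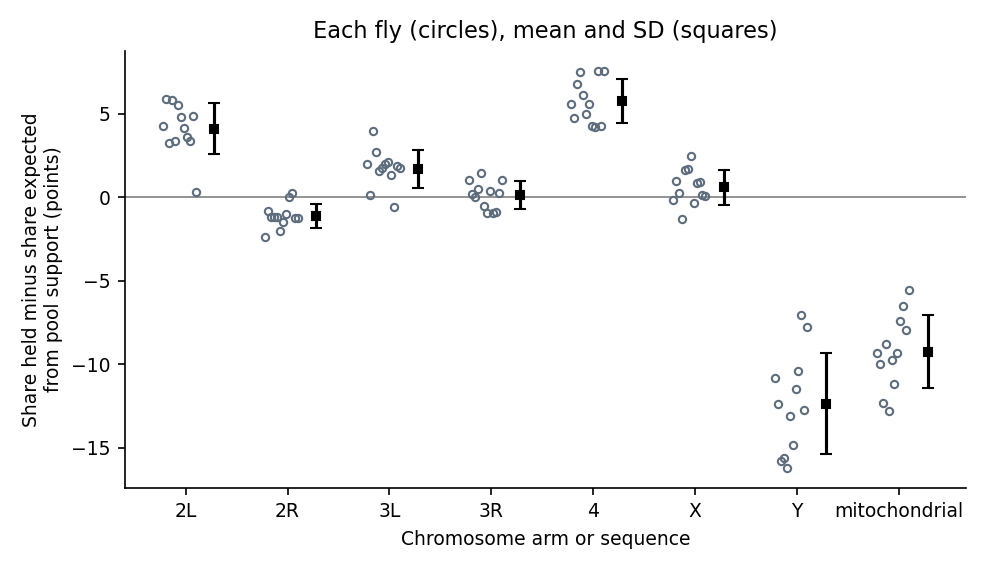
For each chromosome arm or sequence (x axis), the share of its piwi-sKD pool insertions held by a fly minus the share expected from pool support (y axis, percentage points), with 1 circle per fly and squares for mean and SD. All 12 flies lie below 0 for Y and the mitochondrial genome and above 0 for 2L and chromosome 4.

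By class the differences were small. The share found was 39.6% of 1905 ERV insertions (all LTR retrotransposons are counted as ERV here), 32.9% of 1993 non-LTR insertions and 37.4% of 1198 DNA transposon insertions. At equal support, DNA transposons exceeded the rest by 1.71 ± 1.26 points in 11 of 12 flies (exact sign-flip test, adjusted p = 0.00134), and ERVs fell short by 1.17 ± 1.46 points in 9 of 12 (adjusted p = 0.0245). The ERV difference was 0.854 with a window of 0 bp and 0.583 without adjustment for support, so its direction rests on those choices. The DNA difference was 0.312 at 0 bp (adjusted p = 0.0693) and -0.299 with one-to-one matches (adjusted p = 0.285). The value for non-LTR elements was -0.136 ± 1.00 (adjusted p = 0.654).

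Families differed far more than classes. In the 70 families with at least 20 pool insertions, the share found ran from 0% to 77.6%, with a median of 33.7% and quartiles of 20.0% and 50.4%. At equal support 43 of the 70 families differed from expectation at an adjusted p below 0.05 (61.4%; exact sign-flip test over the 12 flies), 13 held more often (18.6%) and 30 less often (42.9%). A call was thus the usual outcome. The insertions of a family are the same in every fly, so the test measures how alike the flies are and not how many insertions back a difference. As a stricter reading, the Wilson interval of the share found left out the expected share in 25 families, among them 10 of the 13 and 12 of the 30. Calls went to 4 ERV families upward and 15 downward of 33, to 5 and 10 of 26 non-LTR families and to 4 and 5 of 11 DNA families. With the 2-read lines left out, 28 of the 44 families that still had 20 insertions were called (63.6%).

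Among the 70 families, those found again most often were the DNA transposon hobo (77.6% of 98), the LINE-like element jockey (76.8% of 125) and the LTR elements opus (74.0% of 50), Dm412 (listed without its prefix, 70.6% of 68) and HMS-Beagle (70.6% of 34). R2-element, a LINE that inserts into the 28S ribosomal RNA genes, followed with 69.2% of 39, the LINE Juan with 65.5% of 29 and the DNA transposon pogo with 60.5% of 210. These families also had high pool support, with medians from 6 reads in R2-element to 14 in jockey and Juan, compared with 4 over the whole list. Most of their insertions also lay in the no-KD pool. The share with a no-KD partner was 85.7% for hobo, 83.2% for jockey, 89.5% for pogo and 72.1% to 88.0% for the others.

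For jockey the lowest fly held 25.6% of the insertions, the median fly 48.4% and the highest 60.8%, against 28.3% expected. The difference of 20.4 ± 5.05 points (SD, n = 12) was the largest of the 70 families, and all 12 flies lay above expectation, fly 10 nearest to it (exact sign-flip test, adjusted p = 0.00149). All 39 jockey insertions with 20 or more pool reads were found, but also 2 of the 9 with 2 reads. For hobo the values were 27.6%, 48.5% and 58.2%, against 27.8% expected, and the difference was 17.1 ± 5.45 points in 12 of 12 flies (adjusted p = 0.00149). Of hobo insertions with 20 or more reads 22 of 22 were found, and of those with 10 to 19 reads 36 of 39. With a window of 0 bp neither family passed the test (hobo 0.696 points, adjusted p = 0.287; jockey 0.199, adjusted p = 0.755). With pool lines merged within 100 bp the hobo difference was 8.04 points and that of jockey 19.1.

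The LTR retrotransposons mdg3 (59.2% of 71 found) and Burdock (57.6% of 33) exceeded expectation by 12 ± 3.56 and 12 ± 6.62 points (SD, n = 12), each in 12 of 12 flies (exact sign-flip test, adjusted p = 0.00149). For Burdock this was lost when 3 reads were required in the flies (2.16 points, adjusted p = 0.32), whereas mdg3 kept 12.9. The Wilson interval of the share found left out the expected share in Burdock but not in mdg3 (48.9% expected). R2-element exceeded expectation by 9.57 ± 7.50 points in 11 of 12 flies (adjusted p = 0.00354), with fly 3 below it. Of its 39 insertions 37 lay on X. Its direction turned with the window, from -2.13 points at 0 bp and -3.58 at 20 bp to 41.1 at 500 bp. For Dm412 and opus the differences were 5.75 ± 5.92 (adjusted p = 0.00456) and 8.44 ± 4.68 points (adjusted p = 0.00149), and that of Dm412 was lost with merged lines (1.89 points, adjusted p = 0.296) and when 3 fly reads were required (2.68, adjusted p = 0.103). For HMS-Beagle and Juan they were 6.37 ± 11.4 and -3.64 ± 5.25 points, and neither passed the test (adjusted p = 0.121 and 0.0575). Juan did pass it, below expectation, at 20 bp (-3.73, adjusted p = 0.0280) and in any family (-5.57, adjusted p = 0.0107). It also did so from 3 fly reads (-3.79, adjusted p = 0.0211), on the arms, 4 and X alone (-5.42, adjusted p = 0.0109) and without fly 1 or fly 5. Without adjustment for support both families lay above and passed (HMS-Beagle 15.2, Juan 9.53). For Juan 59.6% was already expected from its support. The call of pogo (3.36 ± 4.42 points, adjusted p = 0.0397) depended on the matching. Its difference was negative and past the test at 20 bp (-2.09, adjusted p = 0.0104), with merged lines (-3.67, adjusted p = 0.0124) and with one-to-one matches (-5.89, adjusted p = 0.00149). The call was also lost at 0 bp, in any family, on the arms, 4 and X alone, with 9 support classes, from 3 pool reads and for loci at 500 bp (adjusted p from 0.0517 to 0.854), and when any of flies 2, 3, 4, 6, 8, 9, 10 and 12 was left out (adjusted p up to 0.0795).

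**Figure D5:**
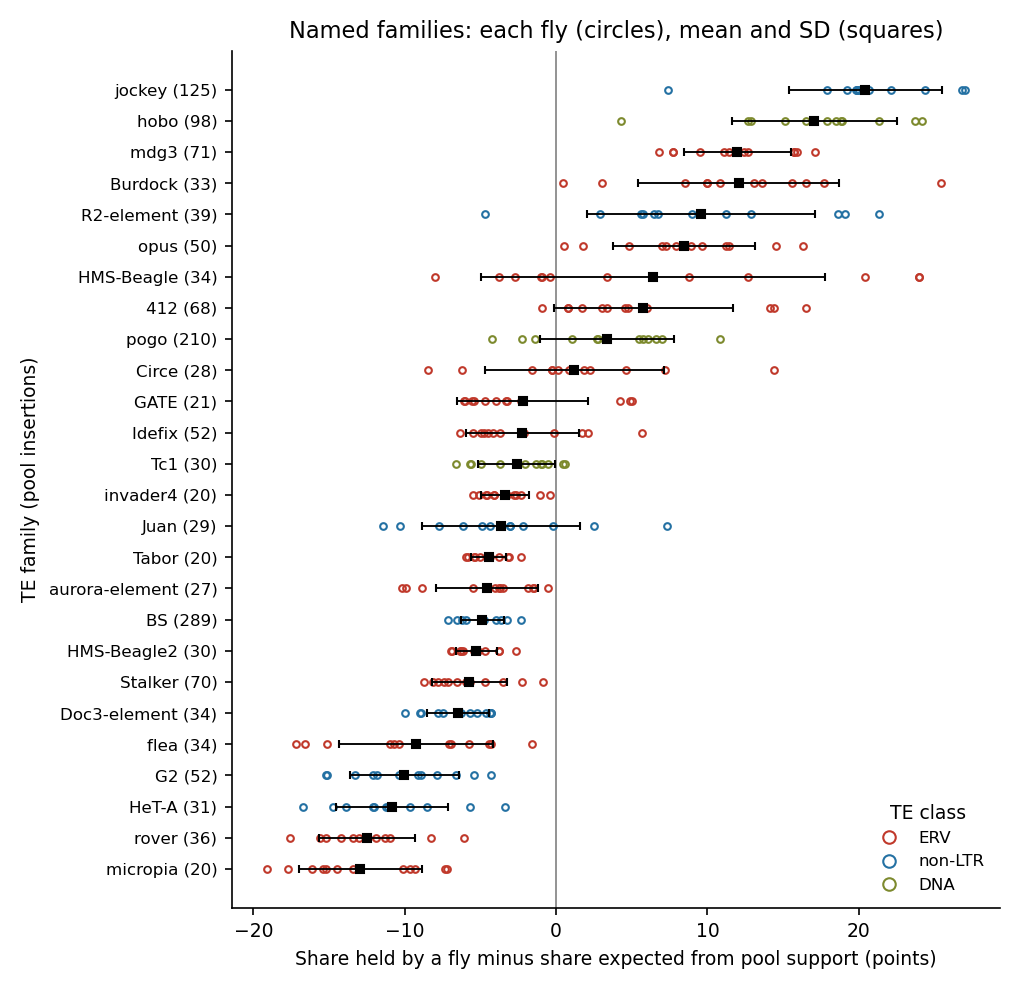
Named families with at least 20 piwi-sKD pool insertions (y axis, number of insertions in brackets), with the share held by a fly minus the share expected from pool support on the x axis (percentage points). Circles are the 12 flies, coloured by TE class, and squares with bars are mean and SD. The means run from -12.9 in micropia to 20.4 in jockey.

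At the other end of the 70 families, 0 of 30 HMS-Beagle2 and 0 of 20 Tabor insertions were found, which for counts of this size leaves shares of up to 11.4% and 16.1% (Wilson upper limits). Both are LTR retrotransposons, and 12 of 12 flies held 0 of them. Their pool support was low, with highest values of 6 and 4 reads, and shares of 18% and 16.3% were expected. The differences at equal support were -5.28 and -4.44 points. They are negative in each fly by construction, since no fly held any, so their test adds nothing. With a 500 bp window 1 HMS-Beagle2 insertion and 0 Tabor insertions had a partner. The LTR retrotransposons aurora-element (7.41% of 27), GATE (9.52% of 21) and invader4 (2 of 20), the non-LTR Doc3-element (8.82% of 34) and the DNA transposon Tc1 (3 of 30) completed the low end together with BS. GATE did not pass the test (-2.20 ± 4.33 points, adjusted p = 0.137), but did so at 500 bp (-6.94, adjusted p = 0.0178), in any family (-3.48, adjusted p = 0.0408), with merged lines (-1.93, adjusted p = 0.0447), with one-to-one matches (-2.11, adjusted p = 0.0273) and without adjustment for support (-13.1). The other families of this end were held less often than expected, with differences from -2.61 points in Tc1 to -6.49 in Doc3-element. The Wilson interval of the share found left out the expected share in BS and Doc3-element, but not in aurora-element, invader4 and Tc1. At 20 bp the calls of aurora-element, invader4 and Tc1 were lost (adjusted p = 0.515, 0.0990 and 0.246). At 0 bp those of aurora-element and invader4 were (0.311 and 0.813), and with 3 fly reads those of invader4 and Tc1 (0.145 and 0.571). That of Tc1 was also lost with merged lines (0.278), one-to-one matches (0.254) and loci at 500 bp (0.437).

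Of all families, the LINE BS of the jockey group had the most insertions that no fly held. It had 289 pool insertions, 203 of them with 2 reads, and 231 of them had no no-KD partner. Of the 289, 17 were found (5.88%, Wilson 95% interval 3.70 to 9.22), against 22.2% expected, so 272 insertions, 8.40% of all that were never found, belonged to BS. A fly held 1.73% to 5.19% of them (median 2.77%), a difference from expectation of -4.86 ± 1.42 points, negative in 12 of 12 flies (exact sign-flip test, adjusted p = 0.00149). Among the 203 with 2 reads 1 was found (0.493%), whereas 8 of 18 with 10 to 19 reads and 5 of 7 with 20 or more were. The no-KD pool had the same trait, with 204 BS insertions of which 13 (6.37%) were found. The DNA transposon 1360 followed with 258 insertions that were never found, and the LTR element roo with 149.

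Among the 70 families, the largest shortfalls at equal support were seen in micropia and rover, both LTR retrotransposons. For micropia, 3 of 20 insertions were found and the lowest, median and highest fly held 0, 0 and 2 of them, against an expected share of 15.4%. The difference was -12.9 ± 4.05 points (SD, n = 12). For rover, 11 of 36 were found (30.6%) and the flies held 0% to 16.7% (median 11.1%), with a difference of -12.5 ± 3.16. HeT-A, which is a retrotransposon that maintains fly telomeres, had 8 of 31 found and a difference of -10.8 ± 3.71, and a match to any family turned it to 12.9. G2, a LINE, had 14 of 52 found (-10 ± 3.62) and the LTR retrotransposon flea 13 of 34 (-9.25 ± 5.10). In each of these 5 families 12 of 12 flies lay below expectation (exact sign-flip test, adjusted p = 0.00149). By the stricter reading, the Wilson interval of the share found left out the expected share in micropia and rover only. HeT-A, G2 and flea did not meet it, and for flea the share found was 38.2% with 39.5% expected. The median pool support of the 5 families was 4 to 8 reads, against 4 over the whole list. Of the micropia insertions 6 lay on Y, and 3 of the other 14 were found (21.4%). The telomeric retrotransposons were not alike in the share found, with 34 of 64 for TAHRE (53.1%, with 42.5% expected) and 1 of 14 for TART-A (49.3% expected). TART-B1 had 2 of 6 (59.4% expected). TAHRE did not pass the family test (2.88 ± 4.67 points, exact sign-flip test, adjusted p = 0.0862), and TART-A and TART-B1 were too small for it. On Y lay 8 of the TART-A and 5 of the TAHRE insertions. On the large arms, 4 and X, 1 of 6 TART-A and 34 of 59 TAHRE insertions were found. These differences between families were not tested.

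For some named families the share found in the no-KD list was near that in the piwi-sKD list. It was 76.5% and 77.6% for hobo, 74.0% and 76.8% for jockey, 56.9% and 60.5% for pogo and 15.8% and 14.3% for Stalker. For others it was farther away, with 27.5% and 38.2% for flea, 33.3% and 42.9% for Circe, 9 of 30 and 11 of 52 for Idefix, 4 of 22 and 3 of 30 for Tc1 and 0 of 11 and 2 of 21 for GATE. These pairs share flies and many loci and were not tested. The 53 families with fewer than 20 pool insertions had 519 insertions, of which 26.2% were found, and 11 of these families, with 62 insertions, were never found.

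Some ERV families were named in addition to those chosen by rank. Among them ZAM, an ERV with an env gene, had 15 pool insertions, of which 6 had a no-KD partner, and 5 were found (33.3%, Wilson 95% interval 15.2 to 58.3; 32.8% expected). In the no-KD list 1 of 7 ZAM insertions was found. Of the 9 ZAM insertions without a no-KD partner 4 were found. The single flies held 0% to 20.0% of the ZAM list (median 6.67%). Their mean was 7.78% against 12.9% expected, and 10 of 12 flies lay below expectation. The ZAM insertion held by the most flies lay at chr3L:24176057 (dm6) within *Snap25*, which encodes a synaptic membrane fusion protein. It had 3 pool reads and no no-KD line within 500 bp, and flies 1, 3, 4, 6, 8 and 11 held it with 13 reads in total. The matching fly lines lay at least 59 bp away, 0 flies held it at 20 bp, and 1 did when 3 reads were required. A second ZAM insertion, at chr2L:23319882 with 2 pool reads, was held by fly 9 with 2 reads. The other 6 ZAM insertions off 2R were in 0 flies. These were at chr3L:24463224 (2 reads), chr3L:25489019 in *lovit* (5 reads), chr3R:3331893 in *spok* (4 reads), chr3R:3608966 (3 reads) and on Y at chrY:323303 and chrY:959168 (6 reads each). On 2R, 3 of 7 were found. Names of genes are those whose annotated span holds the position.

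For gtwin, also an ERV, 2 of 11 pool insertions were found (18.2%), each of the 2 in 1 fly and on 2R, and 7 of the 11 had a no-KD partner. The 6 off 2R were in 0 flies. They lay on X at chrX:21836760 (3 reads), chrX:21843598 and chrX:21843729 (2 reads each), chrX:23213781 (15 reads) and chrX:23213834 (2 reads), and on Y at chrY:975536 (7 reads). The last pair on X sits within 5 kb of ribosomal RNA pseudogenes and had no-KD partners. Neither ZAM nor gtwin reached the 20 insertions needed for the family test. Of the others, gypsy had 4 of 11 found, gypsy8 1 of 17, Idefix 11 of 52 (-2.22 ± 3.75 points, adjusted p = 0.0949), Circe 12 of 28 (1.20 ± 5.92, adjusted p = 0.585) and Stalker 10 of 70 (-5.72 ± 2.5, adjusted p = 0.00149, exact sign-flip tests). The Idefix difference passed the test at 500 bp (-6.75 points, adjusted p = 0.00180), in any family (-3.19, adjusted p = 0.0333), from 3 pool reads (-5.23, adjusted p = 0.0127), for loci at 500 bp (-2.90, adjusted p = 0.00321) and without adjustment for support (-9.55), and that of Circe at 500 bp (15.2, adjusted p = 0.00122). With matches in any family, the Stalker difference was -0.333 points (adjusted p = 0.760). HMS-Beagle2, described above, had 0 of 30, and Dm412 had 48 of 68.

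Pool insertions with no no-KD line of the family within 500 bp had no counterpart in the control list even at the widest window used. There were 1472, of which 122 were found (8.29%), 50 in at least 2 flies and 11 in at least 6. These sites were named after their values were seen. The site in the most flies was an FB insertion, a foldback DNA element, at chrX:19502628 within *CG14200* and *Pfrx*, with 5 pool reads, and 11 flies held it with 69 reads. A Tc1-2 insertion at chr3L:8397490 in *CG7120* (5 pool reads) was in 8 flies with 39 reads, and an FB insertion at chrX:3071460 in *kirre* (2 pool reads) was in 8 flies with 35 reads. The *kirre* site only just passed the cut, as its nearest no-KD FB line lay 586 bp away, and 11 flies held it at 500 bp. A Burdock insertion at chrX:13989873 in *mamo* was in 7 flies. The 122 came from 58 families, led by Cr1a (11 of 68), 1360 (7 of 117) and FB (7 of 18), with 4 each in 7 more families. ZAM had 3 of 8 and BS 2 of 209. Of the 122, 34 (27.9%) were ERV insertions, against 29.8% of the 1472.

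High support did not always bring a match. The 8 best supported insertions that 0 flies held included 5 on Y. These were 1360 at chrY:958806 (364 reads) and chrY:893979 (163 reads), TART-A at chrY:3019153 (182 reads) and chrY:3054804 (75 reads), and G2 at chrY:2778430 (81 reads). In 0 flies was there a line of the family within 500 bp of any of these 5. The other 3 had fly lines just outside the window. They were a P-element at chr2L:19464224 (114 reads, 12 flies at 500 bp), INE-1 at chr3L:19422751 (70 reads, 9 flies) and blood at chr3R:970716 in *Myo81F* (62 reads, 4 flies). Conversely, some insertions with 2 pool reads were common among the flies at 100 bp. The DNA transposon transib2 at chr2L:20171692 was in 12 flies with 49 reads in total. TAHRE at chr4:1278844, Stalker2 at chr3R:31321272, transib4 at chrX:6755974 and invader1 at chr3R:12467786 were in 11 flies each, with 39 to 81 reads. Also common were pogo at chr2L:10756687, gypsy6 at chr3R:3058099 and Rt1b at chr2L:20625863, in 10 flies each. With a window of 20 bp, 0 flies held the TAHRE, Stalker2, gypsy6 and Rt1b lines and 1 held the transib4 line. The nearest fly lines of transib2, invader1 and pogo lay 2, 0 and 0 bp away. No-KD scaled support within 100 bp was 54.1 at the TAHRE and 76.3 at the gypsy6 line. It was 3.69 to 7.38 at the others, except Stalker2, which had no such line.

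The best supported insertions held by all 12 flies were 3 R1A1-element sites on X, at chrX:23535227 (1248 pool reads), chrX:22373522 (225) and chrX:23217141 (196), a P-element at chr3R:29806776 (349) and R2-element at chrX:23217162 (183). With a window of 20 bp, 1 fly held the chrX:22373522 line and 2 flies the R2-element line. At 0 bp each of these sites was held by 0 to 6 flies. R1 and R2 are LINEs that insert into the repeated ribosomal RNA genes, so many copies can feed 1 listed position. The chrX:23217141 and chrX:23217162 sites lie beside ribosomal RNA pseudogenes.

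P-element, the DNA transposon whose ends flank most fly transformation vectors, was listed 14 times in the pool, and its lines were examined after their values were seen. They fell into 7 loci, of which 6 were held by 10 to 12 flies when lines within 500 bp were joined. The first lay at chr2L:19463780-19464224, ending 43 bp from *tj*, with 307 pool reads and 10 to 41 reads in each of 12 flies (median 23.5). The second, at chr3R:29806754-29807277 in *ca* and *ncd*, had 379 pool reads and 11 to 59 reads per fly (median 28.5), and the third, at chr3L:11070218-11070856 reaching into *Mocs1*, had 172 pool reads and was in 11 flies. On X there were loci at chrX:353631-353774 in *CG32816* (158 reads, 12 flies), chrX:2789954-2789996 at 603 bp from the eye colour gene *w* (133 reads, 12 flies) and chrX:10923802-10923877 at 95 bp from the eye colour gene *v* (45 reads, 10 flies). The no-KD pool had all 6, with scaled support of 51.7 to 387.4. The seventh, at chr3L:3983667, had 3 reads and was in 0 flies. At 100 bp the match failed within a locus, since 9 flies held the 170-read line near *tj* and 0 flies held the 114-read line of the same locus.

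Seen from the flies, the pool list covered lines listed in many flies better than those listed in few. Of 1344 fly lines that were in 1 fly, 23.1% (Wilson 95% interval 20.9 to 25.4) had a pool partner. The share was 42.3% for lines in 2 flies, 80.6% in 6 flies, 92.4% in 10 flies and 86.6% in all 12. Support differed as well, since 85.6% of the lines in 1 fly had only 2 reads, against 15.9% of those in all 12. The part of support in this trend was not tested. Among 6663 fly lines present in at least 6 flies, 961 (14.4%) had no pool line within 100 bp and 456 none within 500 bp. The 961 were led by FB (68 lines), INE-1 (64) and Cr1a (56).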

How the data were processed

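Genomic DNA of 2 pools and 12 single flies was analysed from the deposited lists of insertions, each with chromosome, start, end, family and support. Per the labels and methods, the authors mapped reads to dm6 with BWA (0.7.5a-r405 for pools, 0.7.10-r789 for flies) and called insertions with T-lex *de novo*. Deposited support values are read counts in the fly lists and the piwi-sKD list. Those of the no-KD list are a scaled signal, deposited in whole multiples of 1.23, and were used as such. Whether coordinates start at 0 or 1 is not given in the sources used here.

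Insertions were matched within a family at 100 bp. Expected shares were each fly's rates in 5 classes of pool support (2, 3 to 4, 5 to 9, 10 to 19 and 20 or more reads). Tests were exact sign-flip permutation tests over the 12 flies (4096 patterns, two-sided), with Benjamini-Hochberg adjustment over 11 contrasts or 70 families. The family test was also run on simulated data in which each fly held each insertion independently. The real flies are relatives that share insertions, so that simulation cannot give the error rate of the test here. Correlations had 100000 permutations. Classes were set by hand from family names, and gene spans came from the RefSeq table of the same release. Named were the 8 families with the highest and the 8 with the lowest share found, the 5 highest and 5 lowest differences from expectation, ZAM, gtwin, Dm412, HMS-Beagle2, gypsy, Stalker, gypsy8, Idefix and Circe, and sites of ZAM, gtwin and extreme support, none on 2R. Members, lists and tests were chosen with earlier results of these data known. Alternatives were windows of 0, 20 and 500 bp, any family, merged or one-to-one matches, a minimum of 3 reads, arms alone, 9 support classes, no adjustment for support, family minimums of 10 and 50, and each fly left out; merging with matching at 500 bp and leaving out P-element were added after seeing the data. Python 3.11.15, numpy 2.4.6, pandas 2.3.3, scipy 1.17.1 and matplotlib 3.10.9 were used.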

Additional observations from a re-analysis of the deposited data

How the results depend on the processing

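The share of pool insertions found in at least 1 fly (36.4%) was 12%, 24.9% and 49.8% with windows of 0, 20 and 500 bp, 39.8% in any family, 32.7% with lines merged within 100 bp, 32.1% with one-to-one matches, 49.8% from 3 pool reads, 26.8% from 3 fly reads, 39.3% on the arms, 4 and X, and 40.9% with loci merged and matched at 500 bp. The share held by a single fly (15.5%) was 3.00%, 8.51% and 23.9% for the 3 windows, 22.4% from 3 pool reads and 9.58% from 3 fly reads. Fly insertions with a pool partner (71.4%) were 16.5%, 47.0% and 82.7% for the windows, 67.5% and 80.7% for the minimums, and 82.7% for loci at 500 bp. The ERV contrast (-1.17 points) reversed to 0.854 and 0.699 at 0 and 20 bp and to 0.583 without adjustment for support. The DNA contrast (1.71) was 0.312 and 0.396 at 0 and 20 bp, 0.475 with merged lines, and reversed to -0.299 with one-to-one matches. The non-LTR contrast (-0.136) was -1.07 and -0.986 at 0 and 20 bp and -2.29 without adjustment, and reversed to 0.839 at 500 bp, 1.25 in any family, 1.12 merged, 1.06 one-to-one, 1.08 from 3 fly reads and 2.70 for loci at 500 bp. The X contrast (-0.385) was -0.452 and -0.748 at 0 and 20 bp and -1.53 from 3 pool reads, and reversed to 1.70 at 500 bp, 1.90 in any family, 0.0982 merged, 0.258 from 3 fly reads and 0.797 for loci at 500 bp. The chromosome 4 contrast (4.79) was 0.434 at 0 bp and 0.0127 without adjustment. Calls in the family test (43 of 70) were 28 of 44 from 3 pool reads and 20 of 30 with a family minimum of 50. The causes of these shifts were not tested. Contrasts of high against low support, of shared against unshared insertions, of Y, of gene spans and of the pools kept direction and call under each alternative that could be run.

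Among named families, reversals were R2-element at 0 and 20 bp (-2.13 and -3.58 points), Juan at 0 and 500 bp (0.912 and 2.54) and without adjustment (9.53), Idefix at 0 bp (0.697), pogo at 20 bp (-2.09), merged (-3.67) and one-to-one (-5.89), Circe at 20 bp (-2.47) and without fly 10, HeT-A in any family (12.9), and HMS-Beagle merged (-0.858) and for loci at 500 bp (-2.51). Leaving out each fly in turn moved Circe (1.20) between -0.00327 and 2.08. With each fly left out in turn, the share found was 35.4% to 36.3%, family calls were 41 to 45, and the non-LTR contrast was -0.260 to 0.0526, positive without fly 3. The planned contrast for unplaced contigs was not run, since the lists used here hold none. No paired analysis was possible because the fly numbers name nothing shared with either pool. A fly's depth limits what can be called held, so an insertion in 0 flies was not detected rather than absent. Whether such a line was a real insertion or a chimeric fragment was not tested.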
